A study of Mus musculus with 192 samples.

Results

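Described here are 7 genes of red cell formation, Car1, Car2, Tfrc, Tfr2, Blvrb, Mfsd2b and Epor, in 192 single cells of mouse bone marrow. They were chosen by name and read from their rows among the 20764 genes counted. The cells came from C57BL/6 mice aged 8 to 16 weeks and were labelled LSK, the marrow fraction without lineage markers and with Sca-1 and cKit, which holds stem cells and early progenitors. They formed 1 group with no treatment, sequenced in 2 library pools of 96 cells. The labels named no animal, so all cells together counted as 1 biological sample, no test between conditions was possible, and every 95% interval below covers counting error only. The labels also gave 9 signals of the sorter for each cell, in arbitrary units: forward and side scatter, and the antibody stains of cKit, Sca-1, CD135, CD150, CD127, CD11b and CD16/32.

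Red cells arise from stem cells through progenitors that respond to erythropoietin, take up iron bound to transferrin and build it into heme for haemoglobin. Epor encodes the erythropoietin receptor, the signal receiver of that pathway. Tfrc encodes transferrin receptor 1, through which most cells import iron, and Tfr2 encodes transferrin receptor 2, an iron sensor that also associates with the erythropoietin receptor. Car1 and Car2 encode cytosolic carbonic anhydrases, which interconvert carbon dioxide and bicarbonate; both are abundant in mature red cells, and Car2 is also used by many other cell types. Blvrb encodes biliverdin reductase B, a flavin reductase of red cells that also acts on biliverdin, a product of heme breakdown. Mfsd2b encodes the transporter by which red cells and platelets release the lipid signal sphingosine-1-phosphate.

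Of the 192 cells, 191 were kept; the cell left out had 708 gene UMIs (unique molecular identifiers, each counted as 1 captured transcript) and none from the 7 genes. The kept cells had 3704842 gene UMIs between them, 3927 to 49372 each, and the median cell had 17715. The deepest 10 cells held 10.8% of them, the mark against which the sharing out of each gene can be read. Kit, the gene of cKit, had UMIs in 188 of the 191 cells, and Ly6a, a gene of Sca-1, in 72. Erythroid markers were sparse: the sum over 13 measured markers had a median of 1 UMI per cell and a highest value of 64. Of these markers, Hba-a1, which encodes alpha globin, had UMIs in 8 cells, Alas2, the erythroid enzyme that opens heme synthesis, had 2 UMIs in all, and Slc4a1, the anion exchanger of the red cell membrane, had 1.

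On the annotation of GRCm38 the genes lie apart on 6 chromosomes, except for the neighbours Car1 (chr3:14766216-14808368, minus strand) and Car2 (chr3:14886273-14900770, plus strand). Tfrc lies at chr16:32608920-32632794, Tfr2 at chr5:137569840-137587481 and Blvrb at chr7:27447978-27466144, all on the plus strand. Mfsd2b lies at chr12:4862440-4874359 and Epor at chr9:21958897-21963506, both on the minus strand. The only annotated gene that overlaps any of them is a processed pseudogene, Gm16399, inside Car1 on the same strand. It had 32 UMIs of its own in these cells, so a few reads of that stretch could have been assigned either way.

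RefSeq promoter windows on GRCm38.p6, which run from 250 bases before to 50 bases after a transcription start, were matched to 5 of the 7 genes, with 9 windows in all; Car1 and Car2 had none. They are shown because Gata1, the master regulator of red cell genes, binds the word GATA, and its partner Klf1 binds CACCC-like words. The windows of Epor, of Blvrb and Mfsd2b, whose UMIs sat in few cells, and of Tfrc, whose UMIs were widely spread, read 5′ to 3′ along the gene's strand, with capitals for any match, on either strand, to AGATAA or its variants with T as the first or G as the last base.
Epor, chr9:21963527-21963826, minus strand: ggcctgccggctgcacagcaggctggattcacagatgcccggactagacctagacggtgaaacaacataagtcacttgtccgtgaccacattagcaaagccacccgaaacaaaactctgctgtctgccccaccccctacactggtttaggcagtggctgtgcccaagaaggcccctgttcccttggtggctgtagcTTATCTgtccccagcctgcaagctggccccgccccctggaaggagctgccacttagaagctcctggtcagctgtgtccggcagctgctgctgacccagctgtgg
Blvrb, first window, chr7:27447728-27448027, plus strand: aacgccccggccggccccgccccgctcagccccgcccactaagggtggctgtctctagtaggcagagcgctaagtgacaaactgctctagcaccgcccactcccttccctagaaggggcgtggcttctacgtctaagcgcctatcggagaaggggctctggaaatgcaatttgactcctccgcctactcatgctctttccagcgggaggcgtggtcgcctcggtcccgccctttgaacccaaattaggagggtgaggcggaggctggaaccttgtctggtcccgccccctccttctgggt
Mfsd2b, chr12:4874310-4874609, minus strand: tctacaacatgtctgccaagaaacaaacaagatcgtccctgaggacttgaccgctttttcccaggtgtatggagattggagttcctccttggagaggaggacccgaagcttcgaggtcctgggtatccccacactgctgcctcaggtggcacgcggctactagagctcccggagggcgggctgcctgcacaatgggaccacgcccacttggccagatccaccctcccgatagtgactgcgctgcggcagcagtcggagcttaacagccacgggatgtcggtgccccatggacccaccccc
Tfrc, first window, chr16:32608646-32608945, plus strand: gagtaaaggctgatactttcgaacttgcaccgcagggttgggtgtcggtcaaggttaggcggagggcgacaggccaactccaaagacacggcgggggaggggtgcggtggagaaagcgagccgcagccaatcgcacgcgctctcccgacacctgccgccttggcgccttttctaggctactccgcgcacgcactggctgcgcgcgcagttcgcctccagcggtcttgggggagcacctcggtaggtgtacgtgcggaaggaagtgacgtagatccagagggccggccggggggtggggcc

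The Epor window held 1 such word, TTATCT, which is AGATAA on the other strand, starting 54 bases before the transcription start. The first Blvrb window, the Mfsd2b window and the first Tfrc window held none. Among the windows not printed, the third Tfr2 window held TGATAA and the second Blvrb window held TGATAG, and the other 3 held none. Of all 32851 mouse promoter windows, 29.8% held at least 1 such word, so these matches are a description of the letters and mark no binding site. The word CCNCNCCC, in which N is any base, was found on either strand in 8 of the 9 windows, against 49.5% of all windows; overlapping matches occurred, and no match overlapped a GATA word.

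Most Car1 UMIs were carried by very few cells. The 790 UMIs fell as 234, 147, 129, 96, 33, 23, 12, 8, 5 and 5 in the 10 richest cells, and the next cell had 4. The richest cell held 29.6% of them, the richest 5 held 80.9% and the richest 10 held 87.6%, while 3 cells were enough to hold 50%. Outside these 10 cells Car1 was not silent: 36 cells had a lone UMI and 27 cells had 2 to 4, so that 73 of 191 cells (38.2%, exact interval 31.3 to 45.5%) had at least 1. Dealt out in proportion to depth, 790 UMIs would have reached 184 cells.

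Of the 8714 genes with at least 50 UMIs, 0.471% kept more than 20% of their UMIs in a lone cell; of the 6 members that reach this minimum, 1 did, Car1. The median gene of the 8714 had 26.1% of its UMIs in its 10 richest cells. At least as concentrated as Car1 by that measure were 0.149% of them, and the corresponding shares were 0.310% for Mfsd2b and 0.861% for Blvrb.

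Mfsd2b and Blvrb, the sphingosine-1-phosphate exporter and the flavin reductase, were also carried by few cells. Mfsd2b had 91 UMIs in 26 cells (13.6%, interval 9.09 to 19.3%), led by counts of 17, 9, 9, 8, 8, 6 and 6, and its 10 richest cells held 80.2%. Blvrb had 87 UMIs in 36 cells (18.8%, interval 13.6 to 25.1%), led by 12, 10, 9, 8 and 6, and its 10 richest cells held 65.5%. In both genes 5 cells held 50% of the UMIs, and most other carrying cells had a lone UMI. Epor, the erythropoietin receptor, was the sparsest, with 16 UMIs in 10 cells as 3, 3, 2, 2 and 6 lone UMIs. A share held by 10 cells says nothing for so few UMIs.

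Car2 was the opposite of its neighbour. It had 2561 UMIs, found in 183 of 191 cells (95.8%, interval 91.9 to 98.2%), with a median of 11 per cell, and 150 cells had 5 or more. Its richest cells had 111, 106, 53, 47 and 44 UMIs, so the richest held 4.33% and the richest 10 held 21.2%, less than the median gene. The 2 cells above 100 UMIs stood apart from the rest, and both recur below as cells rich in Blvrb. Among the 3265 genes with at least 200 UMIs, a fairer comparison for a gene of this abundance, 29.4% were at least as concentrated as Car2.

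Tfrc, the importer of transferrin-bound iron, and Tfr2, the sensor, were both spread over many cells. Tfrc had 209 UMIs in 86 cells (45%, interval 37.8 to 52.4%), at most 13 in a cell, and its 10 richest cells held 36.8%. Tfr2 had UMIs in 68 cells (35.6%, interval 28.8 to 42.8%), at most 6 in a cell, and its 10 richest cells held 31%. Tfr2 therefore did not share the concentration of Car1, Blvrb and Mfsd2b: 32.0% of genes with at least 50 UMIs were at least as concentrated, and 15.7% were at least as concentrated as Tfrc. Among genes with at least 200 UMIs, the median gene had 19.1% in its 10 richest cells and 1.38% of genes reached the share of Tfrc. With 209 UMIs, Tfrc lies just above that minimum and is set there against mostly more abundant genes. Tfr2 has too few UMIs for that set, so it gives no comparison of Tfrc with Tfr2. With each cell thinned to 12147 UMIs, which left 172 cells, the share of cells with a UMI was 34.3% for Tfrc, 24.4% for Tfr2, 33.7% for Car1 and 94.8% for Car2.

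**Figure D1:**
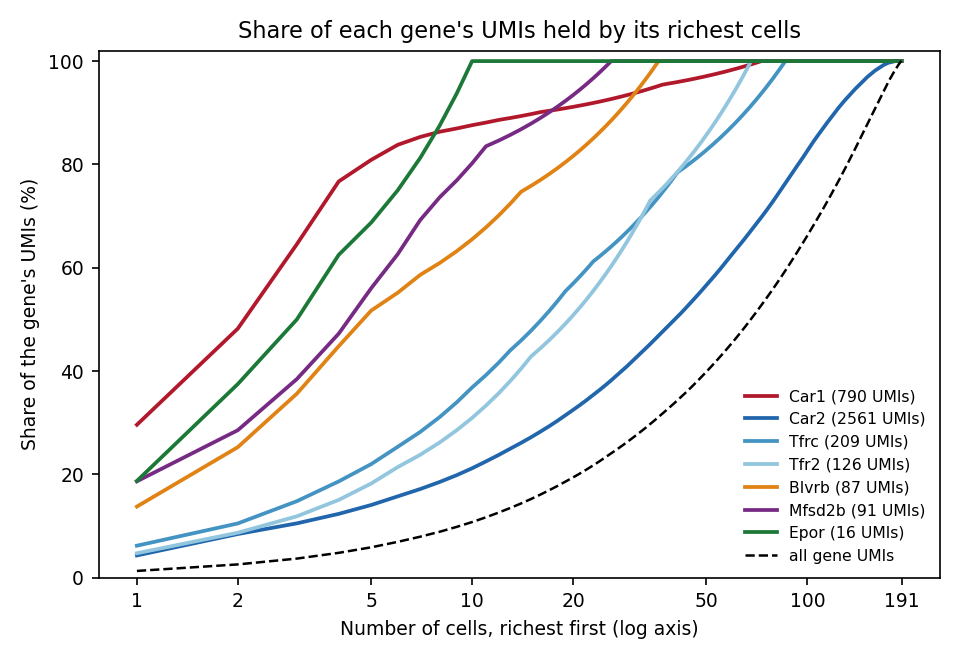
The share of each gene's UMIs (vertical axis, %) held by its richest cells is plotted against the number of cells (horizontal log axis, 1 to 191), with all gene UMIs as a dashed line. Car1 reaches 80.9% at 5 cells, while Car2 reaches 21.2% at 10 cells and runs nearest to the dashed line, with Tfrc and Tfr2 close together in between.

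The pools differed most for Car1, with 339 CPM in pool 2 and 98.2 CPM in pool 1. Pool 2 held 600 Car1 UMIs with 58 of its 95 cells (61.1%) carrying at least 1, and pool 1 held 190 with 15 of its 96 cells (15.6%). Among cells with only 1 to 4 Car1 UMIs, pool 2 had 51 and pool 1 had 12. Each pool had its own rich cells, the highest with 234 Car1 UMIs in pool 2 and with 129 in pool 1, so the steep concentration was seen in both, but the low level across many cells was mostly a feature of pool 2. The total of pool 2 also came with 3 of the 4 richest cells. Whether carry-over between cells pooled before amplification adds to that low level was not tested.

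Next came Epor, with 2.26 CPM in pool 2 and 6.20 in pool 1 and UMIs in 3.16% and 7.29% of the cells, which rests on 4 and 12 UMIs. For the other members the pools were closer. The share of cells with a UMI in pool 2 and pool 1 was 95.8% in each for Car2, 42.1% and 47.9% for Tfrc, 30.5% and 40.6% for Tfr2, 16.8% and 20.8% for Blvrb, and 15.8% and 11.5% for Mfsd2b. A further check used the 14 cells with a CD127 signal above 2000, since CD127, the interleukin-7 receptor, marks lymphoid-directed progenitors. Car1 UMIs were in 35.7% of these cells (interval 12.8 to 64.9%) and in 38.4% of the other 177 (31.2 to 46%), at median depths of 18704 and 17448 UMIs. Thinned to 12147 UMIs the shares were 18.2% of 11 cells and 34.8% of 161. Together the 14 cells held 7 Car1 UMIs, against 783 in the others. All of the 14 that had a Car1 UMI were of pool 2, the pool with the many low counts, and those of pool 1 had none. Low counts of Car1 were thus also met in cells with this lymphoid signal, though in pool 2 only. The counts of the rich cells carry the description below.

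**Figure D2:**
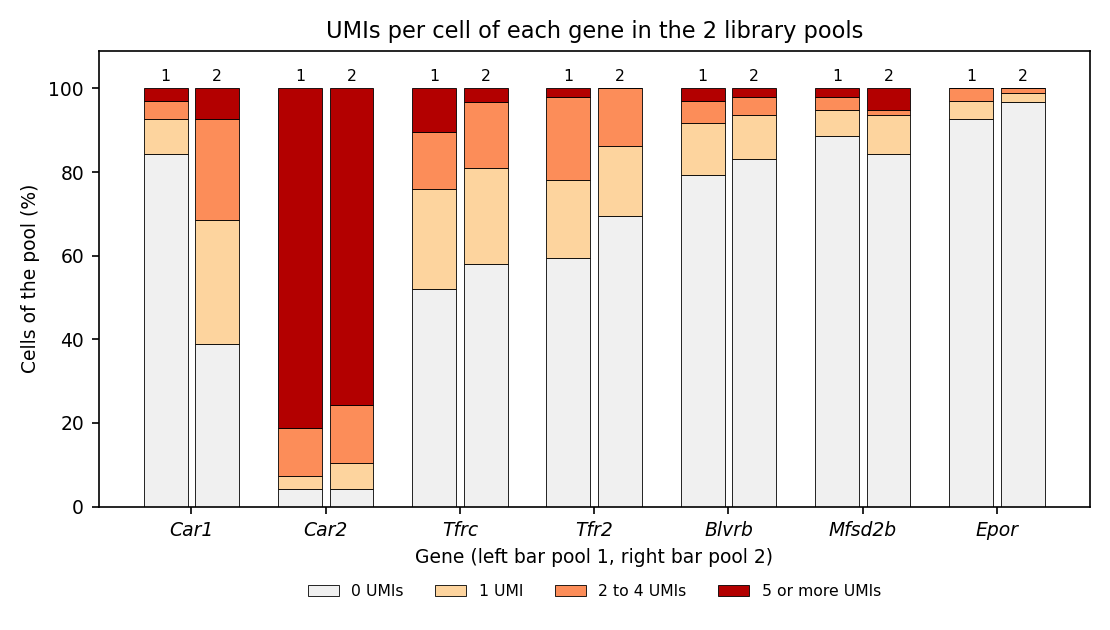
For each gene, paired bars show the share of cells (%) of pool 1 (left, 96 cells) and pool 2 (right, 95 cells) with 0, 1, 2 to 4 and 5 or more UMIs. Cells with 1 to 4 Car1 UMIs number 51 in pool 2 and 12 in pool 1, while the bars of the other genes differ less between pools.

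The cells rich in Car1 and in Blvrb were largely the same. The 10 with the most Car1 UMIs are called C1 to C10 in falling order, and the 4 cells that were among the 10 richest in Blvrb but not in Car1 are called B1 to B4. Shared by the 2 sets were 6 cells, C1 to C6, and 14 cells belonged to either. Since these cells were picked by a count, their values are given cell by cell as a description, and counts of Blvrb of 2, at the edge of its set, mark no distinct cell: the cells just outside also had 2.

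C1, of pool 2, was the deepest cell of all, with 49372 UMIs. It had 234 Car1, 106 Car2, 10 Blvrb, 9 Tfrc, 8 Mfsd2b, 2 Tfr2 and 2 Epor UMIs. With them came 15 UMIs of Klf1, a transcription factor that switches on red cell genes, and 4 of Gata1. All 7 members were thus present in C1, and its depth, 1.33% of all UMIs, was far below its 29.6% share of Car1. Cells were sorted singly, and whether so deep a cell held more than 1 cell was not tested.

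C2, of pool 2 with 39545 UMIs, had 147 Car1, 35 Car2, 8 Mfsd2b, 6 Blvrb, 5 Tfrc, 3 Tfr2 and 1 Epor UMIs. C3, of pool 1 with 39271 UMIs, had 129 Car1, 34 Car2, 12 Blvrb, 9 Mfsd2b, 4 Tfr2, 3 Epor and 1 Tfrc UMIs. C4, of pool 2 with 23437 UMIs, had 96 Car1, 19 Car2, 6 Mfsd2b, 3 Blvrb, 3 Tfr2 and neither Tfrc nor Epor. These cells shared high Car1 with Mfsd2b and Blvrb but differed in Mki67, a marker of dividing cells, which had 57 UMIs in C2, 22 in C1 and none in C3 or C4. The sum over 12 markers of S phase, the time of DNA copying, was above the 90th percentile of all cells (82) in both C1 and C3, against 21 in C2 and 8 in C4, where the median cell had 17. For the markers of G2 and M phase the sum was 94 in C1 and higher still in C2, against 9 in C3 and 1 in C4. These sums are UMIs not scaled to depth, and C1, C2 and C3 were far deeper than the median cell, which had 17715 UMIs.

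C5 and B1, both of pool 1, formed a different kind of rich cell. C5 had 33 Car1, 47 Car2, 13 Tfrc and 8 Blvrb UMIs at 15173 UMIs, and no Mfsd2b. B1 had 2 Car1, 111 Car2, 9 Tfrc, 9 Blvrb and 3 Mfsd2b UMIs at 29137 UMIs. C5 was the richest cell in Tfrc and B1 the richest in Car2. They were also the cells with most alpha globin: Hba-a1 and Hba-a2, near-identical copies whose reads cannot be told apart with certainty, had 13 and 13 UMIs in C5 and 19 and 15 in B1, and Hba-a1 had none in the other 12 rich cells. B1 further had 13 of the 24 UMIs of Rhd, a blood group protein of the red cell membrane. Neither had an UMI of Apoe, which had 6 to 30 UMIs in C1 to C4, C6 and C7.

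C6, of pool 2 with 14426 UMIs, was the richest cell in Mfsd2b, with 17 UMIs, beside 23 Car1 and 3 Blvrb. C7, of pool 1 with 17421 UMIs, had 12 Car1, 3 Mfsd2b and 1 Epor UMIs and no Blvrb. Below C7 the other erythroid genes thinned out. C8, C9 and C10 had 8, 5 and 5 Car1 UMIs, none of Gata1, Klf1 or Ermap, and 0, 1 and 0 UMIs of Mfsd2b. C9 and C10 had 19 and 10 UMIs of the stem cell gene Hlf, and C10 had 13 of Flt3, the gene of CD135. B2, B3 and B4 had no Car1 UMI and 14, 7 and 18 Hlf UMIs.

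**Figure D3:**
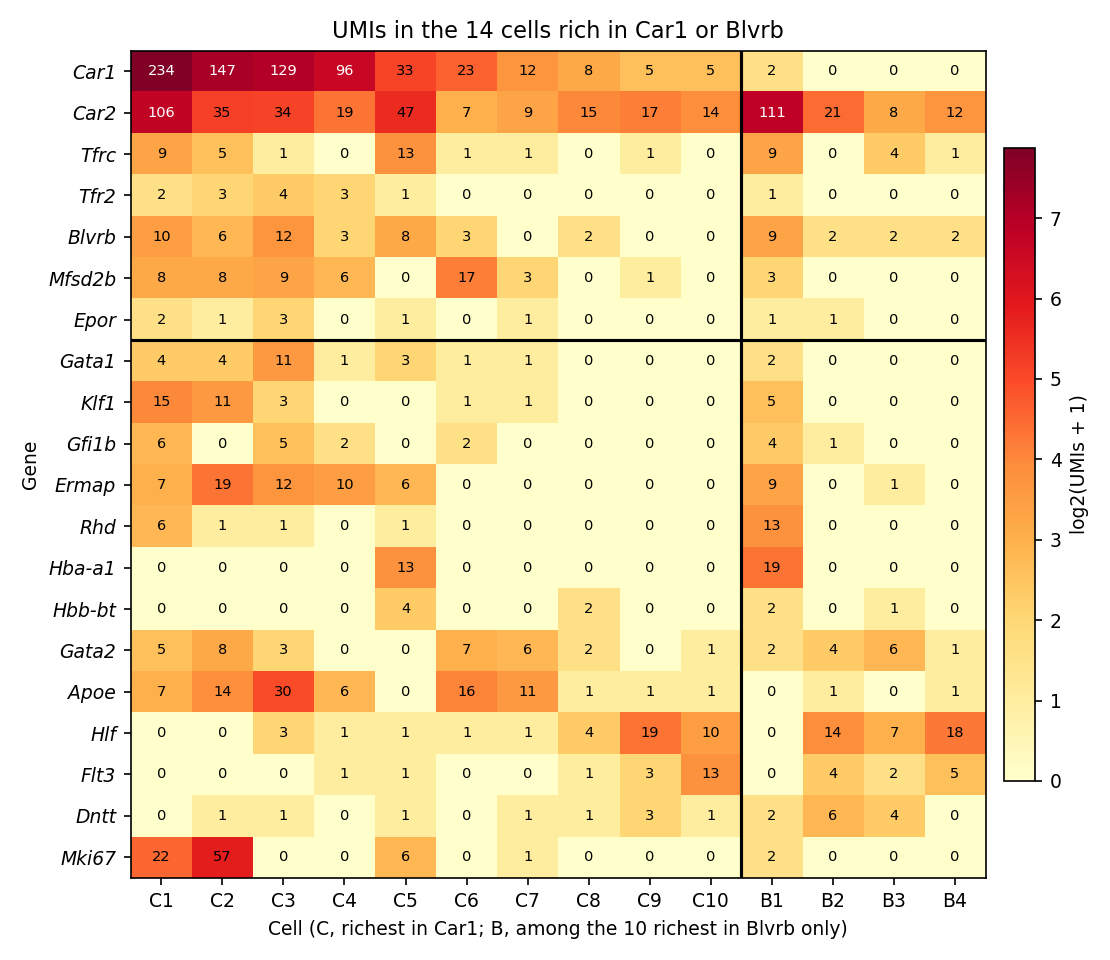
UMIs (numbers and colour, log2 of UMIs plus 1) of the 7 members and 13 further genes (rows) in the 14 cells rich in Car1 or Blvrb (columns). C1 to C7 combine Car1 with erythroid genes such as Gata1, C5 and B1 carry Hba-a1, and C8 to C10 and B2 to B4 carry 4 to 19 UMIs of Hlf.

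The surface signals of the rich cells pointed the same way in nearly all. C1 to C7 ranked 73, 79, 89, 87, 78, 81 and 93 for CD135 among the 96 cells of their own pools, where rank 1 is the highest signal. For Sca-1 they ranked 76, 87, 89, 95, 88, 96 and 96, which puts the lowest Sca-1 signal of each pool on C6 and C7. For CD150 they ranked 10, 3, 2, 7, 51, 9 and 13. The 7 cells were therefore all in the lowest 32 of their pool for both CD135 and Sca-1, and 6 of 7, with the globin-carrying C5 as the exception, were in the highest 32 for CD150.

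The globin-carrying pair was set apart by surface signals too. C5 and B1 ranked 51 and 55 for CD150, in the middle of their pool, and 95 and 94 for CD16/32, near its lowest, while the CD16/32 ranks of C1 to C4, C6 and C7 ran from 36 to 75. B1 ranked 71 for CD135 and 70 for Sca-1, again in the lowest 32. For cKit, C5 ranked 77 and the other 6 of C1 to C7 ranked 3 to 33. Over the full sets, 9 of the 10 cells richest in Car1 and 9 of the 10 richest in Blvrb were in the lowest 32 for CD135, and 8 and 9 were for Sca-1. The exceptions were C10, which ranked 8 for CD135, B4, which ranked 63, and C9, C10 and B4 for Sca-1.

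**Figure D4:**
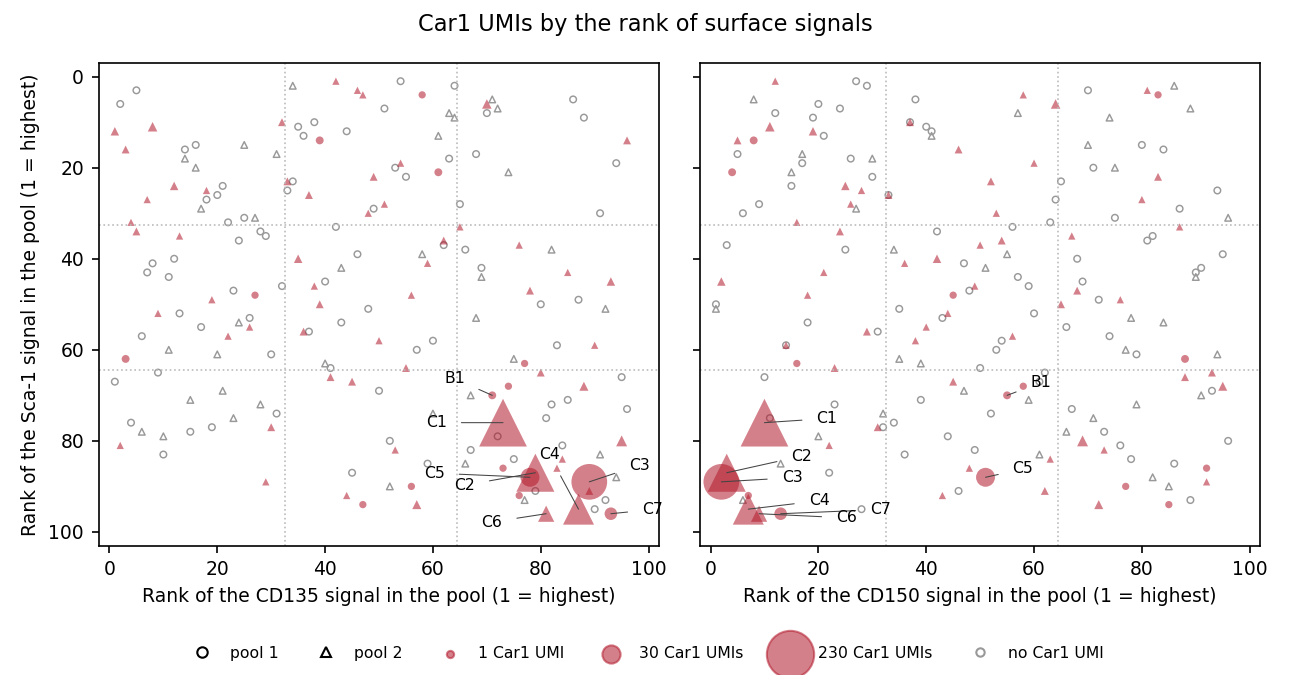
Each cell is placed by the rank of its CD135 (left) or CD150 signal (right) and of its Sca-1 signal (vertical axis) in its own pool, where 1 is the highest; symbol area grows with Car1 UMIs and dotted lines bound the classes of 32. C1 to C7 lie in the lower right corner at left, all at CD135 rank 73 or beyond and Sca-1 rank 76 or beyond, and 6 of the 7 lie at CD150 rank 13 or better at right.

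Transcripts of Sca-1 and CD135 went the same way as the signals, but those of cKit did not. Ly6a had no UMI in C1 to C7, against 161 in all kept cells. Kit had 75 of its 1564 UMIs in them (4.80%), with at least 1 in each, while these cells held 5.36% of all gene UMIs. Slamf1, the gene of CD150, had 3 UMIs in them of 17 in all. Flt3 had 2 UMIs in the 7 cells of 1141 in all. Among markers of other lineages, Pf4, a platelet chemokine gene, had none in the 7 cells, and the sum over the measured megakaryocyte markers ran from 0 to 14 per cell, highest in C7, beside a median of 6 over all cells. C7 also had 11 UMIs of mast cell or basophil markers, where the median cell had 6.

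Other erythroid genes, taken from a list of 52 of which 41 had at least 10 UMIs, were found in the same 7 cells. These cells held 5.36% of all gene UMIs but 25 of 41 UMIs of Gata1 (61.0%), 31 of 45 of Klf1 (68.9%), 48 of 64 of Aqp1 (75%), the red cell water channel, and 54 of 65 of Ermap (83.1%), an erythroid membrane protein. With B1 and B3 the rich cells had 64 of these 65. Of Tspo2, an erythroid relative of a mitochondrial membrane protein, they held all 15 UMIs. These 5 genes were chosen after their values were seen. Over the list the 7 cells held a median of 19.2% of the UMIs of a gene, against 4.33% over the 12862 genes with at least 10 UMIs. They held over 20% for 19 of the 41 genes, against 1.52% of all genes, and over 50% for 9 of the 41, against 0.264%. The set fixed beforehand was the 10 cells richest in Car1. The cut after C7 lies where Gata1, Klf1 and Ermap ended among them, so these list values partly restate that cut and are a description only. All 10 cells, with 6.78% of gene UMIs, held the same shares of Gata1, Klf1 and Ermap.

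The rest of the erythroid list was not concentrated there. By the number of UMIs its leading members were Lmo2, Myb, Tal1, Slc25a37, Jak2 and Nfe2. The 7 cells held 1.73% of Lmo2, 6.91% of Myb, 6.90% of Tal1, all transcription regulators shared with stem cells, 2.61% of the mitochondrial iron importer Slc25a37, 6.77% of Jak2, the kinase bound to the erythropoietin receptor, and 1.95% of Nfe2. These values are near or below the 5.36% that depth gives. The iron list, with 18 measured members, had a median of 5.89% in the 7 cells; 3 members exceeded 20% and none 50%. The 3, named after their values were seen, were the endosomal iron transporter Slc11a2 (26.5%), the ferrireductase Steap3 (25.8%) and the iron exporter Slc40a1 (29.2%). Its leading members, the ferritin chains Ftl1 and Fth1, had 5.02% and 4.92%.

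The label signals allow a comparison that does not pick cells by a count. In each pool the 32 cells with the highest signal formed the upper class and the 32 with the lowest the lower class, and UMIs were summed over a class and expressed per 1000000 gene UMIs (CPM). Car1 had 32 UMIs in the CD135-upper class and 714 in the CD135-lower class (26.6 and 559 CPM), a log2 ratio of -4.39 (interval -4.95 to -3.88). Without its 5 richest cells the ratio was -1.34 (-1.99 to -0.73), so most of the difference lay in those cells. The CD135-lower class still held C6 and C7, with 23 and 12 Car1 UMIs, and a ratio without them too was not computed. Both pools went the same way, with log2 ratios of -5.77 in pool 1 and -4.17 in pool 2.

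Mfsd2b had 3 UMIs in the CD135-upper class and 81 in the CD135-lower class (log2 ratio -4.67, interval -6.97 to -3.07). Tfr2 had 5 and 79 (-3.89, -5.56 to -2.61), and Blvrb had 7 and 72 (-3.27, -4.64 to -2.16). Without their 5 richest cells these ratios were -3.43, -3.53 and -2.07, so these genes kept more of their difference without their richest cells than Car1 did. Epor had none in the CD135-upper class, none in the middle class and all 16 in the CD135-lower class, which bounds its log2 ratio at -2.33 or below with a floor of 3 UMIs in the class at 0. In total, 5 of the 7 genes were at least 2-fold lower in the CD135-upper class, against 8.42% of the 11998 genes compared.

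The remaining pair, Car2 and Tfrc, moved less. Car2 had 471 CPM in the CD135-upper, 654 in the middle and 934 in the CD135-lower class, a graded order with a log2 ratio of -0.99 (interval -1.13 to -0.84), or -0.66 without its 5 richest cells. Tfrc had 72 UMIs in the CD135-upper class and 91 in the CD135-lower class, a log2 ratio of -0.25 whose interval of -0.72 to 0.21 includes 0. Tfr2 was thus in somewhat fewer cells than Tfrc, but its CD135 ratio was as far from 0 as those of the genes held by few: 5 of 64 CD135-upper cells had a Tfr2 UMI, against 37 of 63 CD135-lower cells. Its rise across the classes was stepwise, with 4.16, 34.2 and 61.9 CPM in the upper, middle and lower class.

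Erythroid genes of the list took the same direction by CD135. Of the 41 measured, 37 were lower in the CD135-upper class, 26 of them at least 2-fold, and the median log2 ratio was -1.59, against -0.06 over all genes. Over the 27 with at most 20% of their UMIs in any cell the median was -0.91. Tal1 had -1.26, Myb -0.79, Jak2 -0.67 and Nfe2 -0.61, whereas Lmo2 had 0.02 and Slc25a37 had 0.40, the last with an interval of -0.04 to 0.85. The 18 iron genes had a median of -0.14, with 6 above and 12 below 0. Ftl1, Fth1, Pcbp2 and Pcbp1, the ferritin chains and iron chaperones, lay between -0.02 and 0.11, and Ncoa4 and Iscu had -0.67 and -0.56.

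Markers of other lineages also moved with CD135. Of 9 measured megakaryocyte markers 8 were lower in the CD135-upper class, with a median log2 ratio of -1.84 and sums per cell of 0 to 17 in the upper and 0 to 26 in the lower class. All 7 measured lymphoid markers were higher, with a median of 3.68 and median sums per cell of 39 in the upper and 4 in the lower class. Of 4 mast cell or basophil markers 3 were at least 2-fold lower, with a median of -2.80. Their sums ran from 0 to 15 in the upper and 0 to 68 in the lower class, with median sums of 4.5 and 6. Of 8 granulocyte and monocyte markers 5 were at least 2-fold lower and 2 higher, with a median of -1.46. Their sums ran from 0 to 72 in the upper and 0 to 292 in the lower class, but the median sum was 4 in each. Of 12 G2 and M phase markers 11 were lower, 6 of them at least 2-fold, with a median of -1.03 and median sums of 2 and 3. Of 10 stem cell markers 9 were lower, with a median of -0.89 and sums of 1 to 79 in the upper and 3 to 99 in the lower class. The classes were of similar depth, with medians of 17227 UMIs in the upper and 18031 in the lower class. How far the makeup of the classes sets the ratios of the 7 genes was not tested.

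By CD150, a marker of stem cells and of megakaryocyte and erythroid progenitors, all 7 genes were above 0 and 4 of 7 were at least 2-fold higher in the CD150-upper class, against 6.96% of 12032 genes. Mfsd2b had 78 UMIs in the CD150-upper class and 2 in the CD150-lower class (log2 ratio 4.94, interval 3.04 to 8.01), and 3.59 (1.60 to 6.71) without its 5 richest cells. Car1 had 679 and 39 (3.78, 3.31 to 4.28), which fell to 0.73 (0.15 to 1.33) without its 5 richest. The CD150-upper class then still held C6 and C7, with 23 and 12 Car1 UMIs. Blvrb had 54 and 13 (1.71, 0.82 to 2.71), with 0.79 (-0.22 to 1.88) without its 5 richest, and Epor had 14 and 0, a bound of 1.88 or above. Of these genes Mfsd2b was the one that stayed at least 2-fold higher without its 5 richest cells; for Epor too few UMIs remained.

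Car2, Tfrc and Tfr2 had log2 ratios of 0.29, 0.19 and 0.61 by CD150, or 0.26, -0.07 and 0.38 without their 5 richest cells, and with all cells the intervals of Tfrc (-0.34 to 0.74) and Tfr2 (-0.01 to 1.25) include 0. Tfr2 thus followed CD135 but not detectably CD150. Of the erythroid list, 30 of 34 measured genes were higher in the CD150-upper class, with a median of 0.69, against 0.01 over all genes; the iron list had a median of -0.04. The CD150-upper class was deeper, with a median of 19396 UMIs per cell, against 16065 in the CD150-lower class. It also had more of all 12 markers of the G2 and M phases, with a median log2 ratio of 1.38 and sums per cell of 0 to 335, against 0 to 135. Of 9 megakaryocyte markers 7 were higher (median 0.90, sums of 1 to 26 against 0 to 17), while 6 of 7 granulocyte and monocyte markers (median -1.47, median sums of 5 in each class) and 8 of 9 lymphoid markers (median -0.89, median sums of 7 against 19) were lower. The part of depth, division and these markers in the CD150 ratios was not tested.

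By Sca-1, 5 of 7 genes were at least 2-fold lower in the Sca-1-upper class, against 4.48% of 11995 genes, but not the same 5 as by CD135. Car1 had 42 UMIs in the Sca-1-upper class and 713 in the Sca-1-lower class (log2 ratio -3.90), Mfsd2b 6 and 74 (-3.44), Blvrb 9 and 66 (-2.69), and Epor 2 and 11 (-2.28, interval -5.49 to -0.08). The fifth was Tfrc, with 36 and 110 (-1.43, interval -2.02 to -0.87), which had shown little by CD135. Tfr2, by contrast, had 40 and 51 (-0.17, -0.80 to 0.46). With all cells the counting intervals of the 2 transferrin receptors did not overlap for CD135, where Tfr2 was the lower, or for Sca-1, where Tfrc was. Without the 5 richest cells of each gene they still did not for CD135, but for Sca-1 Tfrc stood at -0.85 (-1.48 to -0.23) and Tfr2 at -0.42 (-1.15 to 0.30), which overlap. Without their 5 richest cells Car1 stood at -0.83 (-1.41 to -0.27), Blvrb at -1.24 (-2.56 to -0.06) and Mfsd2b at -1.95 (-3.54 to -0.61), so 2 members remained at least 2-fold lower by Sca-1. For Car1 the Sca-1-lower class then still held C6 and C7, with 23 and 12 UMIs. Car2 stood at 0.18, and at 0.70 (0.54 to 0.85) without its 5 richest cells. The Sca-1-lower class also had more granulocyte and monocyte markers, all 8 measured being lower in the Sca-1-upper class, with a median of -2.26. Their sums per cell ran from 0 to 72 in the upper and 0 to 292 in the lower class, but the median sums were close, at 4 and 5. All 9 measured stem cell markers were higher in the Sca-1-upper class, with a median of 1.91 and sums of 4 to 99 in the upper and 1 to 66 in the lower class. All 12 G2 and M phase markers were lower, 4 of them at least 2-fold, with a median of -0.68 and median sums of 2 and 3. The part of these markers was not tested.

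By cKit, 5 of 7 were at least 2-fold higher in the cKit-upper class, against 6.66% of 12033 genes. Mfsd2b had 74 UMIs in the cKit-upper class and 4 in the cKit-lower class (log2 ratio 3.89), Car1 674 and 66 (3.03), Tfr2 72 and 13 (2.15, interval 1.28 to 3.12), Blvrb 54 and 16 (1.43) and Epor 10 and 1 (3.0, 0.19 to 8.44). Car2 had 0.83 and did not depend on its richest cells, while Tfrc was lower, at -0.65 (-1.12 to -0.18). Without its 5 richest cells Tfrc stood at -0.37 (-0.90 to 0.17), an interval that includes 0. Its ratio was -1.06 in pool 1 and 0.06 in pool 2. Without their 5 richest cells Tfr2 stood at 1.92 and Car1 at 0.87, the latter with C6 and its 23 Car1 UMIs still in the cKit-upper class. All 10 measured lymphoid markers were lower in the cKit-upper class, with a median of -3.29 and median sums per cell of 6.5 in the upper and 35 in the lower class. Of 9 megakaryocyte markers 8 were higher (median 1.43, sums of 2 to 26 against 0 to 17). Lower were 7 of 8 granulocyte and monocyte markers (median -1.52, sums of 0 to 81 against 0 to 292), but their median sum was 5.5 in the upper and 4 in the lower class. The cKit-upper class was also deeper, with a median of 20480 UMIs per cell, against 16051. All 12 G2 and M phase markers were higher in it, 4 of them at least 2-fold (median 0.63, median sums of 4 against 2). Of 12 S phase markers 11 were higher (median 0.29). The part of depth, division and these markers was not tested.

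**Figure D5:**
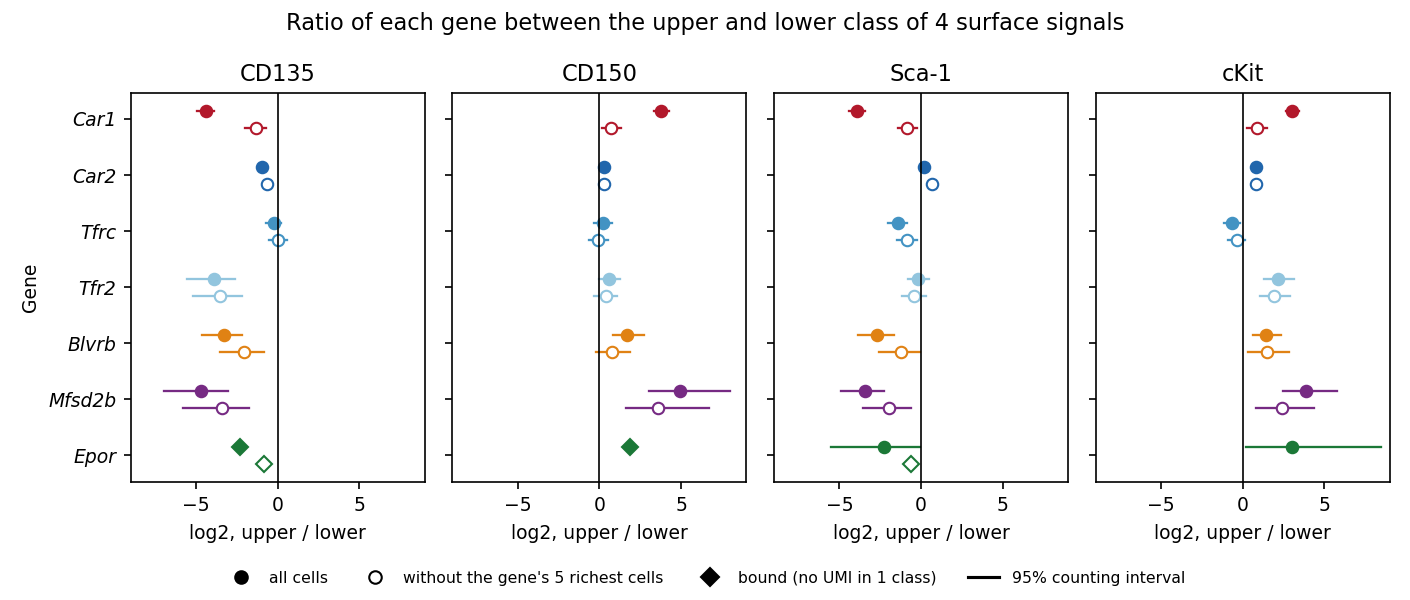
The log2 ratio of each gene (rows) between the upper and lower class of CD135, CD150, Sca-1 and cKit is drawn with all cells (filled) and without the gene's 5 richest cells (open; left out where too few UMIs remained); lines are 95% counting intervals and diamonds are bounds. Open Car1 points lie much nearer 0 than filled ones, at -1.34 against -4.39 for CD135, while Tfr2 moves little, at -3.53 against -3.89.

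The remaining signals differed in how far the members followed them. In the CD11b-upper class 5 of 7 genes, Car1, Tfrc, Blvrb, Mfsd2b and Epor, were at least 2-fold higher, against 5.57% of 11988 genes. All 7 lay above 0 by CD11b, with a median log2 ratio of 1.92, beside 1.71 for the 7 by CD150. Without each gene's 5 richest cells 2 were at least 2-fold higher by CD11b, Tfr2 and Mfsd2b (1.27, interval -0.05 to 2.77). The CD11b-upper class also had more granulocyte and monocyte markers, with sums per cell of 0 to 292 (median 6), against 0 to 38 (median 4.5) in the CD11b-lower class. Their part was not tested. In the CD127-upper class 4 of 7 were, Car1, Blvrb, Mfsd2b and Epor, against 6.20% of 11922. In the CD16/32-upper class 2 of 7, Car1 and Blvrb, were at least 2-fold lower, against 4.31% of 12010. By side scatter 2 of 7, Car1 and Epor, and by forward scatter 1 of 7, Epor, were at least 2-fold higher, against 5.83% of 11961 and 6.82% of 12019 genes. For Car1 the CD127 and CD11b ratios lay in few cells: its CD127 ratio of 2.87 was 0.41 (interval -0.20 to 1.05) without the 5 richest, and its CD11b ratio of 3.39 was 0.26 (-0.33 to 0.85). Its CD127 ratio was -0.23 with each pool split at its median signal, and its side scatter ratio of 1.02 was -0.08 without the richest cell. The CD16/32 ratio of Blvrb, -1.85, was 0.01 without its 5 richest cells. Tfr2 by CD11b, at 0.30 with all cells, was 1.36 (0.47 to 2.34) without its 5 richest. The pools differed in sign for Tfr2 by CD11b with all cells, at -0.56 in pool 1 and 2.75 in pool 2.

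The signals combined narrowed the carriers further; these combinations were added after the values above had been seen. The 34 cells in the lowest 32 of their pool for both CD135 and Sca-1 had 19.7% of all gene UMIs. They held 88.2% of Car1, 79.1% of Mfsd2b, 72.4% of Blvrb and 68.8% of Epor, but 34.4% of Tfrc, 35.7% of Tfr2 and 27.8% of Car2. The 29 cells low for CD135 but not for Sca-1, with 14.8% of gene UMIs, held 2.15% of Car1 and 10.3% of Blvrb, yet 27% of Tfr2. In CPM, Tfr2 was 61.7 in the 34 cells low for both and 62 in these 29, while Car1 was 956 and 31. Tfr2 was thus at a like level in CD135-low cells with and without low Sca-1. The higher Car1 of the cells low for both was almost all that of C1 to C7, which lie there and held 674 of its 697 UMIs. It therefore restates where the rich cells lie and describes no level of the other cells.

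Adding CD150 left 13 cells, low for CD135 and Sca-1 and in the highest 32 for CD150, with 8.85% of gene UMIs. They held 81.3% of Car1, 71.4% of Mfsd2b, 56.2% of Epor and 43.7% of Blvrb. Even there Car1 was uneven, as 7 of the 13 had a Car1 UMI and 6 had 5 or more, namely C1 to C4, C6 and C7. The 21 cells low for CD135 and Sca-1 that were not CD150-upper held 28.7% of Blvrb and 6.96% of Car1, and they include the globin-carrying C5 and B1. Tfrc was at 79.3 CPM in the 13 cells and at 115 CPM in the 21, with intervals of 51.8 to 116.2 and 83.9 to 153 that overlap.

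The cells with CD127 signals above 2000 gave the contrast for Tfrc. Tfrc UMIs were in 10 of these 14 cells (71.4%, interval 41.9 to 91.6%) and in 76 of the other 177 (42.9%, 35.5 to 50.6%), with 40 of its 209 UMIs in the 14. Tfr2 went the other way, with UMIs in 1 of the 14 (7.14%, 0.181 to 33.9%) and 67 of the 177 (37.9%, 30.7 to 45.4%). Car2 was in 78.6% and 97.2%. Thinned to 12147 UMIs, the shares for Tfrc were 63.6% of 11 cells and 32.3% of 161, so the order was kept at equal depth. Tfrc was therefore found in the globin-carrying C5 and in cells with high CD127. It was also met in every CD135 class, with UMIs in 40.6% of upper, 40.6% of middle and 54.0% of lower cells.

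Over the 191 cells, Pearson correlations of log2(UMIs per 10000 + 1) describe the same grouping; cells share libraries and depth, and no p is given. Car1 correlated with Mfsd2b at 0.59 and with Blvrb at 0.56, and Blvrb with Epor at 0.49. Car2 and Tfrc stood at -0.07 and Tfrc and Tfr2 at -0.02. Without the 5 cells richest in Car1 its correlation with Blvrb was 0.23 and with Mfsd2b 0.49, so the first rested on those cells more than the second.

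The genes most like each member by this measure, of 8711 compared, overlapped between members except for Car2. For Car1 they were Aqp1 (0.72), Mfsd2b, Blvrb, Tnfaip2 (0.55) and Mns1 (0.49). For Blvrb they were Aqp1 (0.58), Car1, the metallothionein Mt1 (0.55), Sept8 (0.51) and Tnfaip2 (0.50). The 99th percentile over all genes was 0.25 for Car1 and 0.22 for Blvrb. Aqp1 and Tnfaip2 were on both lists, and each gene was on the list of the other. Car2 shared no gene with the other lists: the stem cell transcription factors Meis1 (0.49) and Hlf (0.47), then Txnip (0.46), Osbpl1a (0.36) and Myct1 (0.35). Tfrc was closest to Il7r, the gene of CD127 (0.38), ahead of Blvrb (0.34), Mt1 (0.32), Rnf168 (0.31) and the mitotic gene Birc5 (0.30), so it had Mt1 in common with Blvrb. Its correlation with the summed markers of S phase was 0.21 and of G2 and M phase 0.22, against -0.19 and -0.04 for Car2.

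Other carbonic anhydrases were scarce. Of 14 further family members 11 were in the table, and Car3 led with 70 UMIs in 44 cells, followed by Car9 with 38 and Car5b with 19. Car3, a cytosolic form known from muscle and fat, had 7 UMIs in the CD135-upper class and 37 in the CD135-lower class, a log2 ratio of -2.31 (interval -3.72 to -1.13), and none in C1 to C7. Car13 had 10 UMIs, Car12 8, Car7 4 and Car6 2, and Car4, Car5a, Car8 and Car10 had 1 each. Within the family, only Car1 among the genes with at least 50 UMIs kept more than 20% of its UMIs in a lone cell.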

How the data were processed

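The marrow was selected for cKit with magnetic beads, per the labels' protocols, then sorted 1 cell per well into 384-well plates with ERCC spike-in RNA, and made into libraries with an in-house CEL-seq method, using poly(dT) primers with a cell index of 8 bases and a UMI of 6 random bases. The deposited table holds UMI counts, not normalized; they come mainly from 3′ ends. For the aligner and the counting tool, nothing is given in the sources used here. The submitters' processing notes name GRCh38, a human build, whereas all genes have mouse Ensembl identifiers, so the build used is not known; symbols and coordinates were taken by identifier from GENCODE M21 on GRCm38.

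Pools were read from the first index of the cell titles. A cell needed 20% of the median gene UMIs of its pool; doublets were not called because cells were sorted singly. Spike-ins (71) were left out of all totals. The pools had medians of 17866 (pool 1) and 17404 UMIs (pool 2). Ratios have exact conditional binomial, sums exact Poisson and shares exact Clopper-Pearson intervals at 95%; all cover counting error only, and UMIs lost to collisions were not restored. A class at 0 was set to 3 UMIs. Ratios use genes with at least 10 UMIs over the 2 classes. A gene was called at least 2-fold changed from a log2 ratio of 1.

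The members and lists were chosen with earlier results of these data known. Named are the 7 members, the 5 genes most correlated with each of Car1, Blvrb, Car2 and Tfrc (predicted, pseudogene and ribosomal protein genes left out), the 6 members with most UMIs of the erythroid and iron lists, and the carbonic anhydrases; those shown cell by cell were picked with their values in view. Alternatives changed the cell filter, weighting, classes, pools, depth, richest cells and correlation. Python 3.11.15, numpy 2.4.6, scipy 1.17.1, pandas 2.3.3 and matplotlib 3.10.9 were used. Scripts were tested on simulated data.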

Additional observations from a re-analysis of the deposited data

How the results depend on the processing

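Of 614 alternative values of the 63 class ratios, 484 lay within the counting interval of the value reported, 125 lay outside it and 5 turned the sign of a ratio of at least 2-fold. These 5 were Car1 by CD127 with each pool split at its median signal (-0.23), Blvrb by CD16/32 without its 5 richest cells (0.01), and Car1 by side scatter without its richest cell (-0.08), without the 5 richest (-0.96) and in pool 1 alone (-2.0). Neither dropping the cell filter nor leaving out Gm42418, Camk1d and Gm26384 from the totals moved any ratio out of its interval.

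The share held by the 10 richest cells moved with weighting, pool and depth. Counted per 10000 UMIs of a cell it was 78.4% for Car1 and 17.7% for Car2. In pool 1 alone it was 97.4% for Car1, 32.8% for Car2, 53.8% for Tfrc, 48.8% for Tfr2, 80.4% for Blvrb and 96.8% for Mfsd2b. In pool 2 alone it was 32.1% for Car2, 50.6% for Tfrc, 52.2% for Tfr2, 83.3% for Blvrb and 91.7% for Mfsd2b; 10 cells are a larger share of 1 pool. Thinned, it was 80.2% for Car1, 17.9% for Car2, 43.9% for Tfr2 and 90% for Mfsd2b. The share of genes with over 20% of their UMIs in 1 cell was 1.19% from 20 UMIs and 0.153% from 200. Of the 5 cells richest in Car1, and likewise in Blvrb, 100% were in the lower class for CD135 and for Sca-1, against 90% and 80% of the 10 richest in Car1 and 90% and 90% of the 10 richest in Blvrb.

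The number of members at least 2-fold apart fell without each gene's 5 richest cells to 1 for CD150, 0 for CD127, 2 for Sca-1, 3 for cKit, 0 for CD16/32, 2 for CD11b, 0 for forward scatter and 0 for side scatter. Without the richest cell it was 1 for side scatter. As a mean over cells it was 2 for CD127, 3 for CD11b and 0 for side scatter, split at the median 1 for CD127, and per spike-in UMI 2 for forward scatter. In pool 1 alone it was 2 for CD127, 3 for forward scatter and 0 for side scatter, and in pool 2 alone 1 for CD16/32. The erythroid median by CD135 was -1.23 over all members with a UMI and -1.19 without the richest cell of each gene. The correlation of Car1 with Blvrb was 0.25 by Spearman's rho and 0.23 without the 5 cells richest in Car1. By Spearman's rho, 1 of the 5 genes most like Car1, 2 of those of Blvrb and 2 of those of Tfrc were again among the 5 most alike. Apart from the changes that follow from fewer cells or UMIs, the cause was not tested. No paired analysis was possible because the cells form 1 group. Depth limited Epor most, whose 16 UMIs gave a log2 interval of 0.19 to 8.44 for cKit.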
